A study of Homo sapiens with 5 samples.

Results

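The 9 genes described here encode proteins of the presynaptic vesicle cycle: the complexins CPLX1 and CPLX2, the SNARE proteins SNAP25, STX1A and VAMP2, the vesicle proteins SYP, SYN1 and RAB3A, and the calcium sensor SYT1. They were taken by symbol from a table of read counts for 18257 genes, and all 9 were found. They were chosen from the CPM values (reads scaled to a common library total) of these same 5 libraries, with earlier results on them known. The levels of the 9 genes and the differences between groups are therefore a description. Counts of them past a test's limit are given only beside the share of all genes past it, and are no evidence for the group.

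Poly(A) RNA was sequenced from HEK293, a human embryonic kidney line, in its T-Rex FLP-IN form with FLAG:DICER1, and the title of every library gives 18 h. The mock transfection, labelled as the control, is 1 library. DICER1, the cytoplasmic nuclease that makes mature microRNAs, was targeted with 2 different siRNAs in 1 library each, and DROSHA, the nuclear nuclease that acts before it, likewise. Mock and DROSHA siRNA are the study's controls for the effect of DICER1 knockdown. Nothing in the labels tells separate cultures from repeat libraries. Any p-value therefore measures only the spread between the 2 libraries of each enzyme, and that spread is assumed for the mock.

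In neurons, vesicles filled with transmitter are docked at the plasma membrane and fuse when calcium enters. The SNAREs of the vesicle (VAMP2) and of the plasma membrane (STX1A and SNAP25) zip into a bundle that pulls the membranes together, synaptotagmins such as SYT1 sense the calcium, and complexins bind the bundle and tune its release. Synapsins and RAB3A act before this step, holding and delivering vesicles, and synaptophysin (SYP) is an abundant protein of the vesicle membrane. The same machinery serves hormone secretion in endocrine cells, and several of its genes are silenced outside the nervous system.

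Total counts lay between 7620206 and 8736455. DICER1 mRNA stood at 242.9 CPM in the mock, on a scale corrected by edgeR's TMM factors, and at 74.0 and 67.7 CPM with DICER1 siRNA 1 and 2, and DROSHA mRNA at 191.3 CPM in the mock and at 41.2 and 41.9 CPM with DROSHA siRNA 1 and 2. Each targeted gene passed edgeR's quasi-likelihood test against the mock, DICER1 with an adjusted p of 0.0260 and DROSHA with 0.000882. With DROSHA siRNA 1 and 2, DICER1 mRNA stood at 281.9 and 332.4 CPM, above the mock in both. This difference did not pass the quasi-likelihood test (adjusted p = 0.979). With DICER1 siRNA 1 and 2, DROSHA mRNA stood at 194.4 and 192.7 CPM. Reads of the tagged DICER1 insert cannot be separated from those of the native gene. Of 9 markers of HEK293 and its embryonic kidney and neurofilament traits, 9 were above the filter of 1 CPM in at least 2 libraries, with a summed level of 435.7 CPM in the mock, 484.5 and 508.9 CPM at the ends of the DICER1 range and 370.7 and 431.1 CPM at those of the DROSHA range. The blood marker PTPRC and the fibroblast markers COL1A2 and DCN had no read in any library, but other markers of these lists passed the filter. In the mock, the blood markers HBB and HBA1 stood at 25.6 and 0.594 CPM, and the fibroblast markers COL1A1 and PDGFRA at 6.89 and 1.43 CPM. Of 5 glia markers 1 passed, MBP at 15.1 CPM in the mock, and of 3 hepatocyte markers 0 passed. Of 9 neuron markers outside the genes described here, 4 passed the filter. The summed level of the 9 was 31.3 CPM in the mock. It was 35.6 to 36.8 CPM with DICER1 siRNA and 27.1 to 27.3 CPM with DROSHA siRNA. Of the 9, 4 were higher than the mock in both DICER1 libraries and 0 lower. Named after their values were seen, they were TUBB3, MAPT, RBFOX3 and STMN2. RBFOX3 had 43 reads in the mock against 46 and 44 with DICER1 siRNA, and STMN2 had 0 against 2 and 1. The 7 neuroendocrine markers, of which 4 passed the filter, summed to 34.6 CPM in the mock, 52.3 to 73.8 CPM with DICER1 siRNA and 28.0 to 34.2 CPM with DROSHA siRNA, and 4 were higher in both DICER1 libraries and 0 lower. These 4, named after their values were seen, were CHGA, CHGB, SCG3 and PCSK2, the last with at most 3 reads in any library. STMN2 and PCSK2 were under the filter. Of all tested genes, a set without them, 36.7% were higher in both DICER1 libraries than in the mock and 36.4% lower. The part of the listed markers in the results was not tested. ELAVL4 had no read. By a chi-square of the counts over 11931 genes, the second DROSHA library stood apart. Its 4 pairs with the other libraries had 7.35 to 9.49 per degree of freedom, 7.54 against the other DROSHA library, and the pairs without it 2.62 to 5.80. Among the latter, DICER1 siRNA 2 had 5.64 against the mock and 5.80 against DROSHA siRNA 1, where DICER1 siRNA 1 had 3.27 and 3.56. In RNA from whole cultures, a change in the number of cells that carry a transcript cannot be told apart from a change in the amount per cell.

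After DICER1 siRNA, CPLX2, SNAP25, SYP, CPLX1, STX1A and VAMP2 stood above the mock in both libraries, and RAB3A, SYN1 and SYT1 did not. STX1A and VAMP2 were only slightly above it. CPLX1 was set apart from STX1A only by DICER1 siRNA 2. With siRNA 1 its log2 ratio to the mock was 0.22, against 0.32 for STX1A (log2 CPM with a prior count of 2). CPLX2 was 6.71-fold and SNAP25 4.20-fold above the mock in the mean of the DICER1 libraries, SYP 2.08-fold and CPLX1 1.63-fold. In the DROSHA libraries the corresponding ratios were 0.929, 1.48, 0.799 and 0.846. These 4 of the 9 genes are the complexin pair, a plasma membrane SNARE and a vesicle membrane protein.

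**Figure D1:**
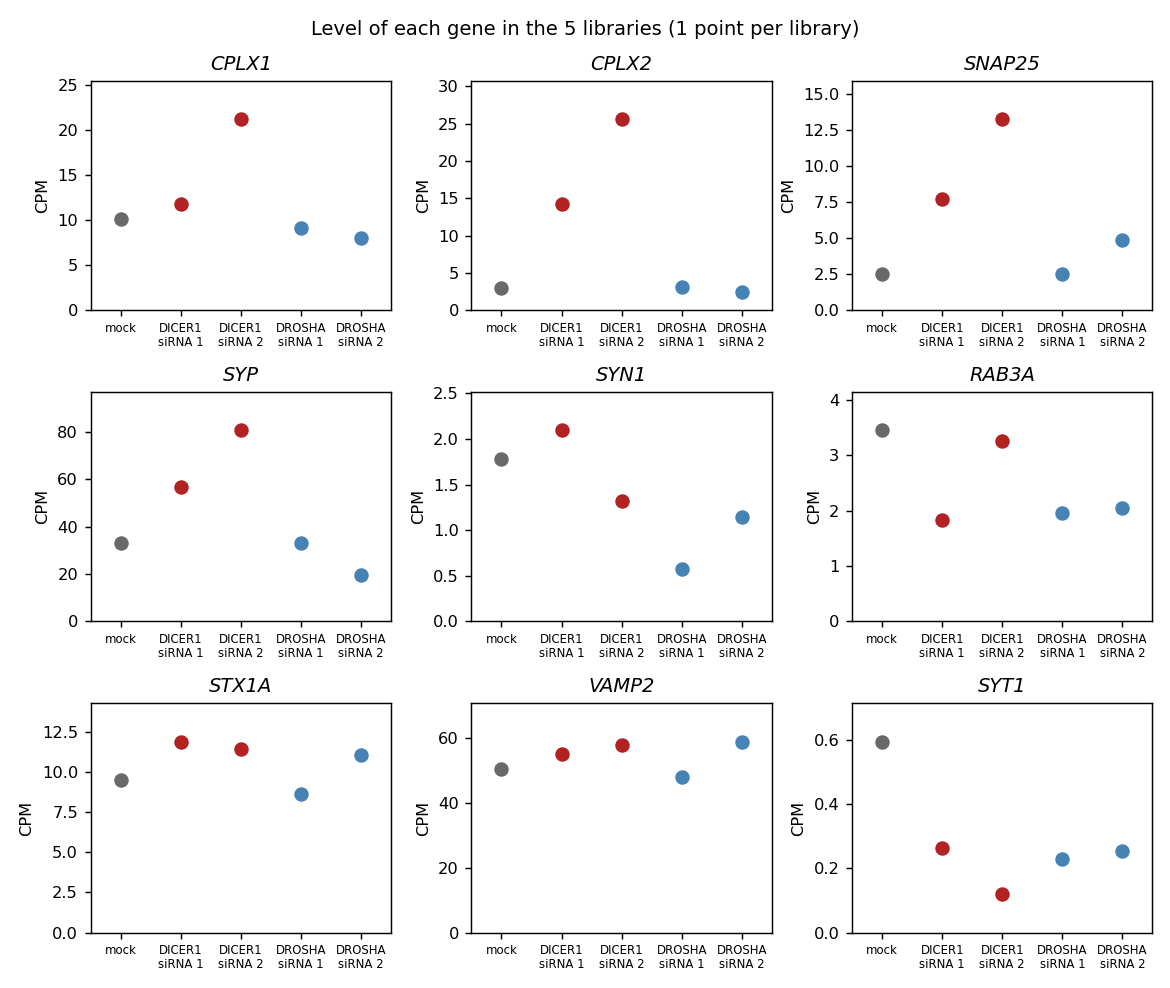
Level of each of the 9 genes in CPM (vertical axes start at 0 and differ between panels) in the mock (grey), DICER1 siRNA (red) and DROSHA siRNA (blue) libraries, 1 point per library. CPLX2 stands at 14.3 and 25.6 CPM in the DICER1 libraries and between 2.42 and 3.10 CPM in the other libraries, whereas VAMP2 lies between 47.8 and 58.9 CPM throughout.

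Promoter sequence was looked at because CPLX2 and SYP stood above the mock with DICER1 siRNA and SYN1 did not. RefSeq promoters on GRCh38.p14 (250 bases before to 50 after the start) matched 7 of the 9 genes, VAMP2 with 2 starts, and not CPLX1 or SNAP25. The search used the arms of the RE1 element, the DNA word bound by the neuronal gene repressor REST: TTCAGCACC, any 2 bases, then GGACAG, on either strand and with at most 1 mismatch. The 250 bases upstream of the start are shown 5′ to 3′ for CPLX2 (chr5:175796283-175796532, plus strand), SYP (chrX:49200194-49200443, minus strand) and SYN1 (chrX:47619858-47620107, minus strand), with a match in capitals.
CPLX2: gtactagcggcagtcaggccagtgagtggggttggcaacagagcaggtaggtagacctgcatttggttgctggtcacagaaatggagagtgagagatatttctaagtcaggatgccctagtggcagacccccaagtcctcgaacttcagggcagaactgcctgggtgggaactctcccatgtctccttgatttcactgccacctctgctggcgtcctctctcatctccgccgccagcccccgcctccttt
SYP: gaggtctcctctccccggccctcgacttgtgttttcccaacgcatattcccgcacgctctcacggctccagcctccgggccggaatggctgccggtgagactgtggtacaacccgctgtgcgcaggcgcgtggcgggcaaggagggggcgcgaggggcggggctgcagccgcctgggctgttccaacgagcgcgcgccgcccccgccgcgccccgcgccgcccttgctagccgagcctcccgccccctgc
SYN1: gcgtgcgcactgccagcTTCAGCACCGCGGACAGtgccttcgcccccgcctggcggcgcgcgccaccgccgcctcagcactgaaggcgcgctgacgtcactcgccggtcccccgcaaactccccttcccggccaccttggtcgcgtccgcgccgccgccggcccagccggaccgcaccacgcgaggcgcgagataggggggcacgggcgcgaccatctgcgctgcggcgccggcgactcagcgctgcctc

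SYN1 held an exact match at bases 18 to 34 of its window, and the windows of CPLX2, SYP, STX1A, VAMP2, RAB3A and SYT1 held none. Of 35116 promoters of this length in the table, 0.0142% held an exact match and 0.0541% a match with at most 1 mismatch. The CPLX2 window also had few CG pairs, 8 against 35 for SYP, 46 for SYN1, 15 for SYT1 and a median of 14 over all promoters. It covers 1 start of CPLX2, and which start the cells used was not measured. In spliced protein-coding transcripts of GENCODE 29, 1 match was found among the 9 genes, on the minus strand of 1 of the 10 transcripts of CPLX2. It lies at chr5:175871892-175871908 on GRCh38, in the 5′ UTR of that transcript and in no exon of the other 9 transcripts of the gene. It is shown with the arms in capitals.
CPLX2 transcript site: TTCAGCACCacGGAGAG
Its difference from the motif is C15G, counted from 1 at the 5′ end of the motif. Of 19669 protein-coding genes 0.513% had a transcript with a match this good. A match of letters is not a measured binding site, and introns were not searched.

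Of the complexins, CPLX2 (chr5:175796310-175884020, plus strand, GRCh38) had 25 reads in the mock, 109 and 213 with DICER1 siRNA 1 and 2, and 27 and 19 with DROSHA siRNA 1 and 2. As levels these were 2.97 CPM, 14.3 and 25.6 CPM, and 3.10 and 2.42 CPM. Both DICER1 libraries lay above every other library, and the DROSHA libraries lay on either side of the mock. The log2 fold change was 2.75 ± 0.46 (SE) for DICER1 siRNA over mock, -0.10 ± 0.60 for DROSHA siRNA over mock and 2.85 ± 0.36 for DICER1 over DROSHA siRNA.

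CPLX1 (chr4:784957-826198, minus strand), the other complexin of fast central synapses, had 85 reads in the mock, 90 and 176 with DICER1 siRNA 1 and 2, and 79 and 63 with DROSHA siRNA 1 and 2. Its levels were 10.1 CPM in the mock, 11.8 and 21.2 CPM after DICER1 siRNA and 9.06 and 8.03 CPM after DROSHA siRNA. The 3 groups did not overlap, but the first DICER1 library was close to the mock and the second well above it. The log2 fold change was 0.71 ± 0.35 (SE) in DICER1 against mock and 0.95 ± 0.29 in DICER1 against DROSHA. Against the mock it was 0.22 for DICER1 siRNA 1 and 1.05 for siRNA 2 taken singly, on the scale of log2 CPM with a prior count of 2.

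The balance of the complexin pair can be read within each library, free of scaling between libraries. CPLX2 gave 22.7% of the reads of both genes in the mock (25 of 110 reads, exact 95% binomial interval 15.3% to 31.7%). With DICER1 siRNA 1 and 2 it gave 54.8% (109 of 199, 47.6% to 61.8%) and 54.8% (213 of 389, 49.7% to 59.8%). With DROSHA siRNA 1 and 2 it gave 25.5% (27 of 106, 17.5% to 34.9%) and 23.2% (19 of 82, 14.6% to 33.8%). The intervals cover counting error only and leave out the spread between libraries. Both genes were chosen from the CPM values of these libraries, so whether the intervals meet is a description and no test. The DICER1 libraries, whose complexin read totals differ from each other by a wide margin, hold nearly the same share, and neither interval meets that of the mock or of a DROSHA library. These are shares of reads and not of molecules, since the exons of CPLX2 are longer, at 7.099 kb against 2.418 kb for CPLX1 in GENCODE 29.

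**Figure D2:**
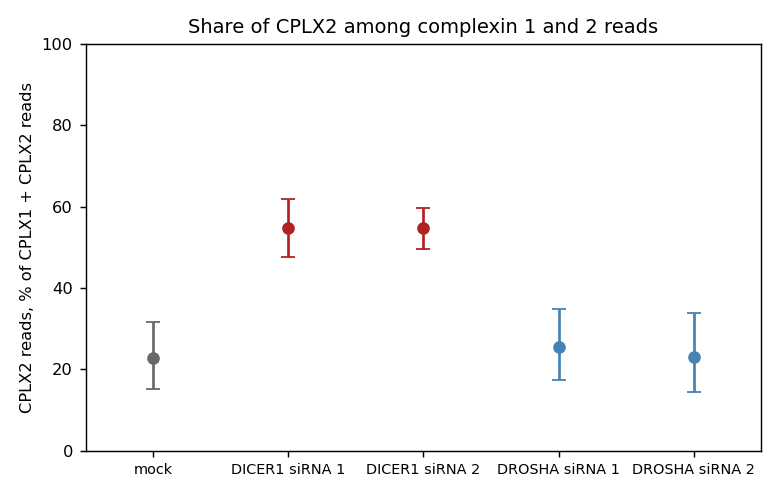
CPLX2 reads as a percentage of CPLX1 and CPLX2 reads together in each library, with exact 95% binomial intervals (counting error only). The DICER1 libraries (red) both stand at 54.8%, and the mock (grey) and DROSHA libraries (blue) between 22.7% and 25.5%.

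Of the SNAREs, SNAP25 (chr20:10218830-10307418, plus strand), which lends the bundle a pair of helices and is cut by some botulinum toxins, had 21 reads in the mock, 59 and 110 with DICER1 siRNA 1 and 2, and 22 and 38 with DROSHA siRNA 1 and 2. The levels were 2.50 CPM in the mock, 7.72 and 13.2 CPM after DICER1 siRNA, and 2.52 and 4.84 CPM after DROSHA siRNA. The DICER1 libraries were above all others, and the second DROSHA library lay between them and the mock. Its log2 fold change was 2.07 ± 0.51 (SE) for DICER1 siRNA over mock, 0.54 ± 0.59 for DROSHA siRNA over mock and 1.53 ± 0.37 for DICER1 over DROSHA siRNA. The value for DROSHA rests on siRNA 2, and was 0.0189 without it.

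STX1A (chr7:73699206-73719672, minus strand), the plasma membrane partner of SNAP25, stood at 9.51 CPM in the mock, 11.9 and 11.4 CPM with DICER1 siRNA and 8.60 and 11.1 CPM with DROSHA siRNA. VAMP2 (chr17:8159149-8163546, minus strand), the vesicle SNARE, stood at 50.3 CPM in the mock, 55.1 and 57.7 CPM with DICER1 siRNA and 47.8 and 58.9 CPM with DROSHA siRNA. In both genes the DICER1 libraries were slightly above the mock and the DROSHA libraries lay on either side of it. The log2 fold changes in DICER1 against mock were 0.29 ± 0.22 (SE) for STX1A and 0.17 ± 0.15 for VAMP2. The partners with which SNAP25 assembles thus differed from the mock by 1.23-fold and 1.12-fold where SNAP25 differed by 4.20-fold.

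Of the vesicle proteins, SYP (chrX:49187804-49200259, minus strand) had 278 reads in the mock, 434 and 670 with DICER1 siRNA 1 and 2, and 288 and 155 with DROSHA siRNA 1 and 2. The levels were 33.0 CPM in the mock, 56.8 and 80.6 CPM after DICER1 siRNA, and 33.0 and 19.7 CPM after DROSHA siRNA. The DICER1 libraries were highest, the first DROSHA library equalled the mock and the second was the lowest of all. The log2 fold change was 1.06 ± 0.32 (SE) for DICER1 siRNA over mock, -0.32 ± 0.32 for DROSHA siRNA over mock and 1.37 ± 0.26 for DICER1 over DROSHA siRNA. The value for DROSHA rests on siRNA 2, and it was 0.0029 without that library.

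RAB3A (chr19:18196784-18204074, minus strand), the small GTPase that brings vesicles to the release site, had 29 reads in the mock, 14 and 27 with DICER1 siRNA and 17 and 16 with DROSHA siRNA. Its levels of 1.83, 3.25, 1.95 and 2.04 CPM in the siRNA libraries all lay under the 3.45 CPM of the mock. SYN1 (chrX:47571898-47619943, minus strand), whose promoter held the exact match and which tethers vesicles to the cytoskeleton, had 15 reads in the mock, 16 and 11 with DICER1 siRNA and 5 and 9 with DROSHA siRNA. Its DROSHA libraries, at 0.574 and 1.15 CPM, were under the mock at 1.78 CPM, and its DICER1 libraries, at 2.09 and 1.32 CPM, lay on either side. SYT1 (chr12:78863993-79452008, plus strand), the main calcium sensor of fast release, had 5 reads in the mock and 2, 1, 2 and 2 in the siRNA libraries, too few for a fold change. It is the only one of the 9 genes under the filter. The other 8 were all at 1.78 CPM or more in the mock itself.

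**Figure D3:**
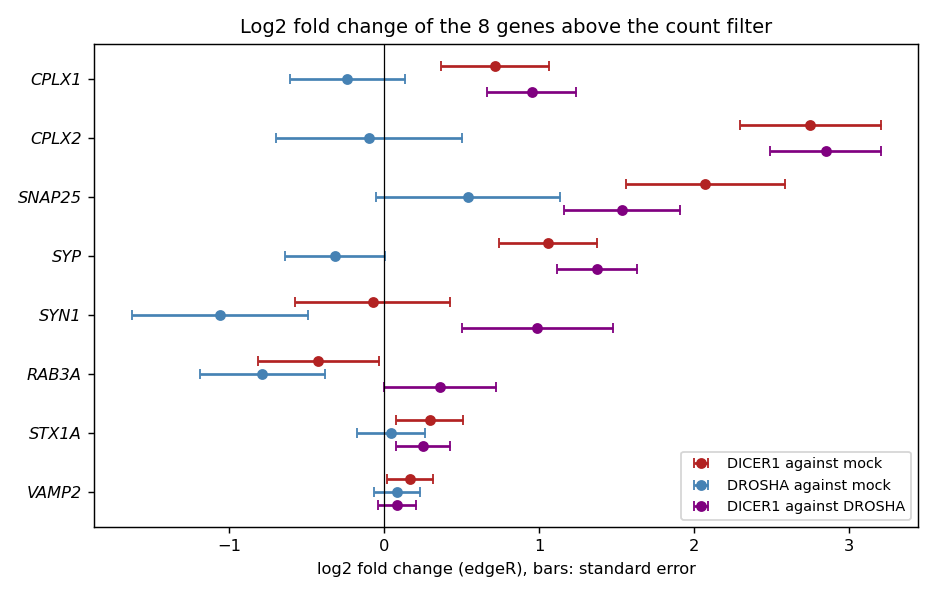
Log2 fold change (horizontal axis) with its standard error for the 8 genes above the filter, for DICER1 siRNA over mock (red), DROSHA siRNA over mock (blue) and DICER1 over DROSHA siRNA (purple). CPLX2, SNAP25 and SYP stand at 2.75, 2.07 and 1.06 in DICER1 against mock, and VAMP2 at 0.17.

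Between genes, levels are comparable only per length. Per kilobase of exon, the mock held 15.4 CPM of VAMP2, 6.34 of SYP, 4.18 of CPLX1, 2.57 of STX1A, 1.90 of RAB3A, 0.743 of SNAP25, 0.466 of SYN1, 0.419 of CPLX2 and 0.0915 of SYT1. By exact Poisson 95% intervals for counting error, STX1A and RAB3A, SNAP25 and SYN1, and SYN1 and CPLX2 were neighbours that overlapped. With DICER1 siRNA 2, CPLX2 at 3.61 and SNAP25 at 3.94 CPM per kilobase stood above STX1A at 3.09 and RAB3A at 1.79. With DICER1 siRNA 1 they stood at 2.01 and 2.30, still under STX1A at 3.22. SYP came close to VAMP2 only with DICER1 siRNA 2, at 15.4 against 17.7 CPM per kilobase. Exons came from GENCODE 29, which is not the annotation of the counts.

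The siRNAs against DICER1 left similar amounts of DICER1 mRNA, with 0.914 times as much in the library of siRNA 2 as in that of siRNA 1 (exact 95% interval 0.812 to 1.03, counting error only). The counts of several of the genes differed between these libraries. The ratio of siRNA 2 to siRNA 1 was 1.796 (1.42 to 2.28) for CPLX2, 1.798 (1.39 to 2.34) for CPLX1, 1.71 (1.24 to 2.39) for SNAP25 and 1.42 (1.26 to 1.60) for SYP. It was 1.05 (0.918 to 1.20) for VAMP2 and 0.960 (0.712 to 1.29) for STX1A. RAB3A, below the mock in both libraries, had a ratio of 1.77 (0.898 to 3.66) and SYN1 0.632 (0.265 to 1.45), both on few reads. Among all 12234 tested genes the median ratio was 1.0008, and 2.17% of genes had a ratio over 1.5. Each side is 1 library, so there is no replicate check. In the DROSHA pair SYP ran the other way, at 0.598 (0.488 to 0.729), and SNAP25 at 1.92 (1.11 to 3.40).

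**Figure D4:**
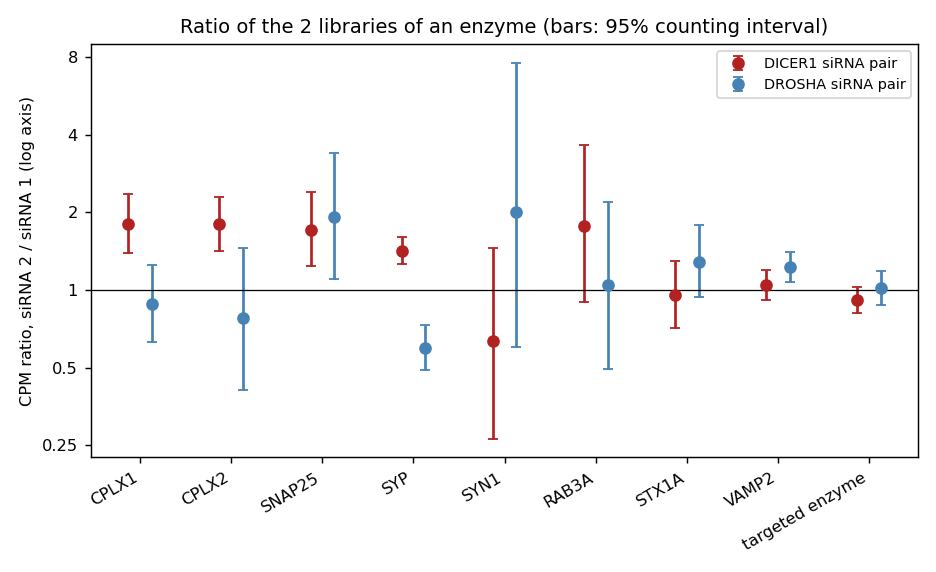
Ratio of CPM with siRNA 2 to CPM with siRNA 1 (vertical log axis) within the DICER1 pair (red) and the DROSHA pair (blue), with exact 95% intervals for counting error only; the last position is the targeted enzyme itself. In the DICER1 pair CPLX1, CPLX2, SNAP25 and SYP lie between 1.42 and 1.798, with VAMP2 at 1.05.

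Over all tested genes, edgeR's quasi-likelihood test called 1 gene (0.00817%) in DICER1 against mock, and none of the 8 genes was among the calls. Of the 8, 3 had an unadjusted p under 0.05 on the higher side and 0 on the lower, beside 2.48% and 2.98% of all genes. DESeq2 called 0.0409% of all genes and CPLX2 among them. The edgeR likelihood ratio test called 0.237% of all genes, among them CPLX2 and SNAP25. In both DICER1 libraries 6 of the 8 were above the mock and 1 was below it, beside 36.7% and 36.4% of all genes. The median log2 fold change of the 8 was 0.50, against 0.0005 over all tested genes, and it was 0.28 without DICER1 siRNA 2 and 0.66 without siRNA 1. These are the values by which the genes were chosen.

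In DROSHA against mock the quasi-likelihood test again called 0.00817% of all genes and 0 of the 8, with 0 at an unadjusted p under 0.05. That limit was met by 2.07% of all genes on the higher side and 1.62% on the lower. DESeq2 called 0.00817% and the likelihood ratio test 0.0245% of all genes, in each case 0 of the 8. Of the 8, 1 was above the mock in both DROSHA libraries, SNAP25, and 3 were below it, CPLX1, SYN1 and RAB3A, beside 31.5% and 32.4% of all genes. The median log2 fold change was -0.17, or -0.32 when DROSHA siRNA 1 was left out and -0.10 when siRNA 2 was. Both comparisons so far share the single mock library.

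DICER1 against DROSHA compares the siRNA libraries, 2 on each side. The mock is on neither side, though it was part of the same fit. The quasi-likelihood test called 0.0163% of all genes, the targeted genes DICER1 and DROSHA, and 0 of the 8. At an unadjusted p under 0.05, 4 of the 8 were higher and 0 lower, beside 4.02% and 4.32% of all genes. DESeq2 called 0.196% of all genes, with CPLX2 and SYP among them, and the likelihood ratio test 1.06%, with CPLX2, SNAP25 and SYP. In every DICER1 library against every DROSHA library 6 of the 8 were higher and 0 lower, beside 20.9% and 20.0% of all genes. The median of the 8 was 0.97, also in a fit of the 4 siRNA libraries alone, which called 0 of the 8. Quasi-likelihood calls were not stable to the libraries used: CPLX2 was called without DICER1 siRNA 1, and CPLX2 and SYP without DROSHA siRNA 1. Without DROSHA siRNA 1 the count over all genes went from 2 to 427. Without DROSHA siRNA 2, the library that stood apart, it was 18, with 0 of the 8 and a median of 0.96. The log2 fold changes were then 2.69 for CPLX2, 2.05 for SNAP25, 1.06 for SYP and 0.87 for CPLX1.

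Of 153 other presynaptic genes in 6 textbook lists, 124 passed the filter, and edgeR's quasi-likelihood test called 0 of them in any of the 3 comparisons. These lists too were drawn up with earlier results of these data known. Counts of their genes are therefore a description and no independent evidence. In DICER1 against DROSHA, 14 had an unadjusted p under 0.05 on the higher side and 4 on the lower, and 41 were higher and 16 lower in every DICER1 library than in every DROSHA library. Of all tested genes 4.02% and 4.32% met the first pair of criteria and 20.9% and 20.0% the second. The median log2 fold change was 0.07, against 0.0042 over all tested genes. DESeq2 called 2 of them, BSN and UNC13A, and the likelihood ratio test 8, these and CACNA1B, NAPG, SCAMP5, SLC6A9, STX3 and SYT14, beside 0.196% and 1.06% of all genes. In DICER1 against mock 7 were higher and 1 lower at an unadjusted p under 0.05, beside 2.48% and 2.98% of all genes. In both DICER1 libraries 46 were above the mock and 47 below it, beside 36.7% and 36.4% of all genes. The uneven count of 41 and 16 was thus not seen in DICER1 against mock, where the median was 0.0145. DESeq2 called 0 there and the likelihood ratio test 2, SLC6A9 and UNC13A, beside 0.0409% and 0.237% of all genes. In DROSHA against mock 1 was higher and 0 lower at an unadjusted p under 0.05, beside 2.07% and 1.62% of all genes. DESeq2 and the likelihood ratio test called 0 in that comparison. In both DROSHA libraries 28 were above the mock and 45 below it, beside 31.5% and 32.4% of all genes, with a median of -0.05. Without DROSHA siRNA 1 the quasi-likelihood test called 10 in DICER1 against DROSHA.

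**Figure D5:**
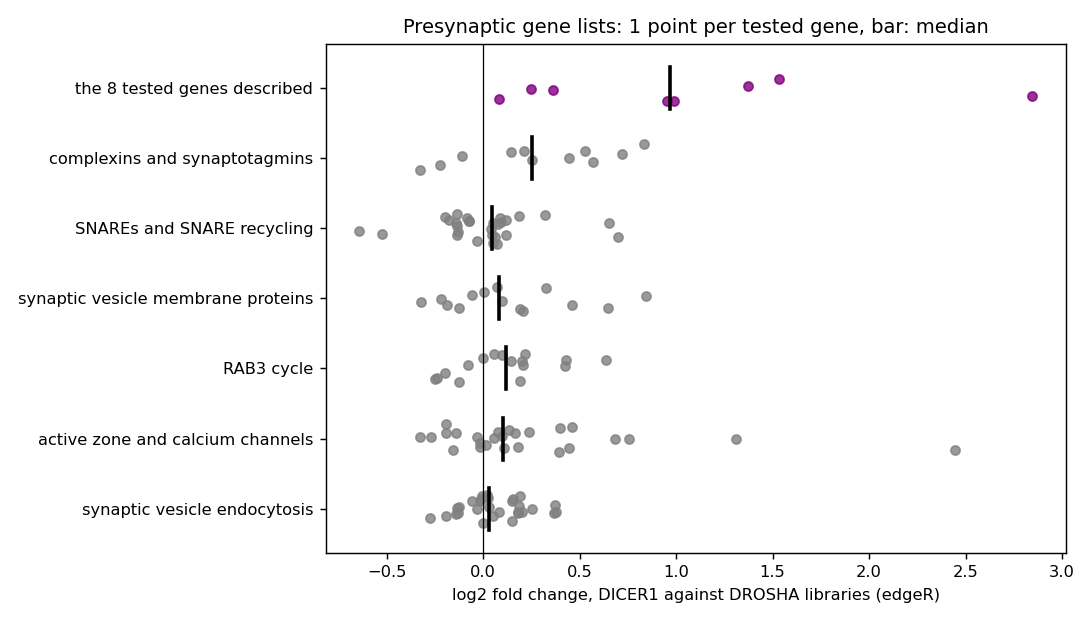
Log2 fold change in DICER1 against DROSHA (horizontal axis), 1 point per tested gene, for the 8 tested genes described (purple) and the 6 lists of other presynaptic genes (grey), with the median of each as a bar. The median is 0.97 for the 8 genes, which were chosen for their values, and between 0.03 and 0.25 for the lists.

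The active zone holds the scaffold at which vesicles dock and the calcium channels that trigger them. Of 32 genes on this list 26 were tested, with a median log2 fold change of 0.10 in DICER1 against DROSHA. UNC13A, which opens syntaxin so that the SNARE bundle can form, had 32 reads in the mock, 73 and 128 with DICER1 siRNA and 22 and 16 with DROSHA siRNA. Its log2 fold change was 2.44 ± 0.32 (SE) in DICER1 against DROSHA (edgeR adjusted p = 0.158) and 1.72 ± 0.37 in DICER1 against mock (adjusted p = 0.865). BSN, the giant scaffold protein bassoon, had 141 reads in the mock, 206 and 392 with DICER1 siRNA and 153 and 96 with DROSHA siRNA, a log2 fold change of 1.31 ± 0.29 in DICER1 against DROSHA (edgeR adjusted p = 0.423). CACNA1B, the pore of N-type calcium channels, had 66, then 98 and 120, then 72 and 62 reads, at 0.75 ± 0.16 (edgeR adjusted p = 0.398). RIMS4, a short relative of the RIM scaffolds, stood at 0.46 ± 0.15. In UNC13A, BSN and CACNA1B the DICER1 libraries lay above all 3 others, and none of these genes passed the test.

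Of the vesicle membrane proteins 14 of 24 were tested, with a median of 0.08. SCAMP5, a secretory carrier protein of synaptic vesicles, had 226 reads in the mock, 283 and 435 with DICER1 siRNA and 253 and 162 with DROSHA siRNA, and SLC6A9, a glycine transporter of the plasma membrane placed on this list, had 79, then 160 and 219, then 142 and 109. The log2 fold changes in DICER1 against DROSHA were 0.84 ± 0.22 (SE; edgeR adjusted p = 0.470) and 0.65 ± 0.16 (edgeR adjusted p = 0.467). SLC6A9 was above the mock in all 4 siRNA libraries, unlike CPLX2 and SYP. SNAP25 was above it in all 4 too, though barely with DROSHA siRNA 1, at 2.52 against 2.50 CPM. SYNGR3, a synaptogyrin, stood at 0.46 ± 0.24 and SYPL1, a relative of synaptophysin found outside neurons, at -0.32 ± 0.17.

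Of the other complexins and synaptotagmins 11 of 20 were tested, with a median of 0.25. SYT14 stood at 0.83 ± 0.19 (SE; edgeR adjusted p = 0.443), SYT17 at 0.72 ± 0.29, SYT7, a slow calcium sensor, at 0.44 ± 0.18 and SYT9 at 0.25 ± 0.13. CPLX3 had no read in any library. Of the SNARE and SNARE recycling genes 28 of 29 were tested, with a median of 0.04. The members with the smallest p lay on both sides: STXBP5L, the tomosyn relative, at 0.70 ± 0.19, but the syntaxin STX3 at -0.53 ± 0.12 (edgeR adjusted p = 0.443), NAPG, a partner of NSF in taking SNAREs apart, at -0.64 ± 0.16 (edgeR adjusted p = 0.444) and the endosomal syntaxin STX12 at -0.18 ± 0.08.

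Of the RAB3 cycle genes 16 of 18 were tested, with a median of 0.12. SYTL1 stood at 0.64 ± 0.26 (SE), RAB27A, a secretory granule GTPase, at 0.42 ± 0.17, RAB3GAP1, which switches RAB3 off, at -0.24 ± 0.09 and RAB3IP, an exchange factor, at -0.25 ± 0.11. Of the endocytosis genes 29 of 30 were tested, with a median of 0.03 and a range of -0.28 to 0.38. The dynamin DNM1 stood at 0.38 ± 0.20, amphiphysin (AMPH) at -0.28 ± 0.16, the clathrin heavy chain CLTC at -0.13 ± 0.06 and the uncoating chaperone HSPA8 at -0.20 ± 0.05. The smallest edgeR adjusted p in DICER1 against DROSHA was 0.566 among the RAB3 cycle genes and 0.455 among the endocytosis genes.

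Genes with the most similar pattern were sought among 11513 tested genes whose mean was 2 CPM or more, the 9 described genes left out, by the root mean square difference of the 4 log2 ratios to the mock. For CPLX2 the nearest were DISP2 at 0.773, UNC13A at 0.806 and GOLGA7B at 0.840, and for SNAP25 they were DISP2 at 0.460, SLC6A9 at 0.624 and GOLGA7B at 0.630, all in log2 units. DISP2 had 11 reads in the mock, 27 and 45 with DICER1 siRNA and 15 and 12 with DROSHA siRNA. GOLGA7B had 17, then 41 and 56, then 24 and 15 reads. None of these genes matched CPLX2 closely, and its own ratios of 2.17 and 3.01 in the DICER1 libraries were larger than the 1.28 and 1.87 of DISP2. CPLX2 and SNAP25 differed from each other by 0.752, CPLX1 and SYP by 0.374, and STX1A and VAMP2 by 0.104. All these ratios share the same mock library. The mean of 2 CPM includes the DICER1 libraries. DISP2 reached it only through them, at 3.53 and 5.41 CPM, against 1.31 CPM in the mock and 1.72 and 1.53 CPM with DROSHA siRNA. A gene as low as DISP2 in the mock that did not rise was left out. The ranking is therefore a description.

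Some reads may belong to neighbours, since strand use in the counting is not known. In GENCODE 29 the exons of STX1A share 662 bases with BUD23 on the opposite strand, those of RAB3A 165 bases with MPV17L2, those of SYN1 23 bases with ARAF on the opposite strand, and those of SYP 68 and SYT1 14 bases with an antisense RNA. On their own strand, VAMP2 shares 430 bases with a protein-coding gene and SYN1 297 bases with a processed transcript, neither of them in the count table. No exon of another gene overlapped those of CPLX1, CPLX2 or SNAP25.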

How the data were processed

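Poly(A) libraries were made with an Illumina TruSeq protocol, per the labels' protocols. CASAVA 1.8.2, STAR, HTSeq and edgeR are named with the build hg19, per the submitters' processing notes, without their roles; strand use in counting: not given in the sources used here. The authors deposited these counts as whole numbers per gene symbol, without normalization. Columns were matched to samples by name.

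From these counts, 12234 genes were tested, those reaching 1 CPM in 2 or more libraries. edgeR 4.0.16 (R 4.3.3) gave the quasi-likelihood F test, with TMM factors, in a single fit of the 5 libraries by group, with Benjamini-Hochberg adjustment over all tested genes at 0.05. With a single mock, spread is estimated from the siRNA pairs (2 residual degrees of freedom) and assumed for the mock as well. Each standard error is the size of the log2 fold change over the root of F. DESeq2 1.42.0 and the edgeR likelihood ratio test were alternatives. Coordinates, exon lengths and overlaps come from GENCODE 29 on GRCh38 and promoters from RefSeq on GRCh38.p14, not from the build of the counts.

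The 9 genes and the lists were chosen with earlier results of these data known. Other presynaptic genes named are the up to 4 of each list with the smallest p in DICER1 against DROSHA and a mean of at least 1 CPM; genes called only under other settings were named after their values were seen. Exact intervals are Clopper-Pearson or Poisson at 95% and cover counting error only.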

Additional observations from a re-analysis of the deposited data

How the results depend on the processing

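None of the 8 tested genes was called in the fit as reported, and this held with DESeq2 size factors in every comparison. In DICER1 against mock the number called was 1 with DESeq2 and 2 with the edgeR likelihood ratio test, which also called 2 other presynaptic genes. In DICER1 against DROSHA the number was 1 without the filter on low counts, 2 with DESeq2 and 3 with the likelihood ratio test, and of the other presynaptic genes 1, 2 and 8 were called. Leaving out 1 siRNA library at a time gave 0 to 2 of the 9 genes and 0 to 10 of the others there, and 0 to 4 of the others in DROSHA against mock. The median log2 fold change then ran from 0.77 to 1.0005 in DICER1 against DROSHA, from 0.28 to 0.66 in DICER1 against mock and from -0.32 to -0.10 in DROSHA against mock. The cause of these changes was not tested.

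Of single values, 1 of 64 changed sign in DICER1 against mock, 4 of 64 in DROSHA against mock and 2 of 80 in DICER1 against DROSHA, all when 1 library was left out. Leaving out DICER1 siRNA 1 or 2, SYN1 stood at -0.43 and 0.23 in DICER1 against mock, and RAB3A at 0.70 and -0.12 in DICER1 against DROSHA. Leaving out DROSHA siRNA 1 or 2 gave -0.30 and 0.0626 for CPLX2, -0.75 and 0.0029 for SYP, 0.22 and -0.14 for STX1A and 0.22 and -0.0687 for VAMP2 in DROSHA against mock, and -0.0609 and 0.24 for VAMP2 in DICER1 against DROSHA. Over all genes, calls numbered 1, 1 and 2 in DICER1 against mock, DROSHA against mock and DICER1 against DROSHA, against 3, 1 and 12 without the filter, 5, 1 and 24 with DESeq2 and 29, 3 and 130 with the likelihood ratio test. Leaving out 1 library gave 0 to 5, 1 to 225 and 1 to 427. With the siRNA number as a replicate block, 1 of the 9 genes, CPLX2, was called in DICER1 against DROSHA, with a fitted log2 change of 2.80, and 4 genes in all. The numbers name different siRNAs and do not pair the libraries: deviations of the DICER1 and DROSHA libraries by number had a correlation of 0.02 across genes. A block was not possible in comparisons with the mock, which has no number. The mock itself could not be left out of those comparisons. SYN1, with 5 to 16 reads, and SYT1, with 1 to 5, are limited by depth.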
